A study of Mus musculus with 12 samples.

Results

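A set of 10 inflammatory genes was followed in RAW264.7 cells, a mouse macrophage line, after DNA damage in the presence and absence of the transcription factors TFEB and TFE3. The members were chosen by symbol, matched through Ensembl identifiers, and are 10 of the 32688 genes in the table: the cytokine genes Tnf, Il1a, Il1b, Il1rn, Il6, Lif, Osm, Csf1 and Tnfsf9, and Ptgs2, which encodes the inducible cyclooxygenase. There were 4 groups of 3 libraries. Null control and DKO control cells received no etoposide, and Null etoposide and DKO etoposide cells received 100 µM etoposide, a topoisomerase II poison that breaks DNA, for 8 h. Null cells carry both transcription factors, and DKO cells are a double knockout of Tfeb and Tfe3 taken from earlier work that used CRISPR-Cas9 editing. Each genotype is represented by a single line, so the knockout and any other difference between the lines cannot be told apart. The labels give the control cells as untreated whereas the methods of the study name DMSO. The titles of the DKO etoposide libraries mention MEFs (mouse embryonic fibroblasts), and the markers below were measured for that reason.

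Macrophages release cytokines as the first signals of inflammation. Tumour necrosis factor and the interleukin-1 proteins act through NF-kB and MAP kinases, the interleukin-6 family acts through the shared receptor chain gp130 and STAT3, and colony-stimulating factor 1 keeps macrophages alive through its own receptor. Cyclooxygenase-2, the product of Ptgs2, makes the precursor of prostaglandins, which act as local mediators of pain, fever and vessel tone. Transcripts of many of these genes are short-lived and are made on demand, so that a resting macrophage holds few of them.

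The 12 libraries held 29837255 to 61809316 counts, with 29837255 to 58697226 in control and 50172982 to 61809316 in etoposide libraries. The share on the mitochondrial genome was 19.4% to 21.7% in Null etoposide and 14.1% to 18.3% in the other libraries, and leaving it out of the library sizes changed no call of a member. The 8 macrophage markers summed to 4191 to 5130 CPM (counts-per-million of a library's total) per library, with the lowest, Fcgr1, at a mean of 5.12 CPM in DKO etoposide cells, whereas the 8 fibroblast markers summed to 0.152 to 2.03 CPM and the highest single value was 1.38 CPM for Pdgfrb. Tfeb fell from a mean of 16.8 CPM in Null control to 4.40 CPM in DKO control libraries and Tfe3 from 104 to 37.8 CPM. After etoposide Tfeb stood at 7.56 CPM (Null) and 4.34 CPM (DKO), a smaller gap than in control, and Tfe3 at 101 and 37.7 CPM, and every DKO library lay below every Null library for both. DKO control 1 stood apart from the other libraries of its group, by 45.8 and 53.6 times what counting alone gives against 6.40 between replicates 2 and 3, and Null control 1 and 3 differed by 36.6 times. Leaving out DKO control 1 changed a call of Tnf, Il1a, Il1b and Osm, and leaving out Null control 1 one of Il1b and Il1rn, as given beside those results or among the dependences on processing. The labels do not say that the libraries of a group came from separate cultures, although the study calls its etoposide samples independent, so the p-values measure the spread between these libraries, part of which may be technical. In bulk RNA, fewer cells that express a gene and less RNA per cell cannot be told apart.

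Etoposide raised most of the members in both genotypes. Of 9 members with enough counts to test, 8 were higher in Null etoposide than in Null control cells (limma-trend, Benjamini-Hochberg adjusted p under 0.05 over 18066 genes), where 39.6% of all tested genes were called and 20.9% were called higher. The same number, 8 of 9, were higher in DKO cells, where 39.3% of all genes were called and 20.2% were called higher. In both genotypes the exception was Tnfsf9, and the tenth member, Il6, was too low to test. Il1a, Lif and Csf1 reached the count filter through their etoposide libraries, since at most 2 of their 6 control libraries stood at its minimum of 0.190 CPM, so the number of members that rose carries little weight by itself.

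Genotype divided the members. In control cells 6 of 9 differed between DKO and Null cells, 4 higher and 2 lower, against 19.3% of all genes called, 10.9% higher and 8.4% lower. After etoposide 7 of 9 differed, 5 higher and 2 lower, against 33.7% of all genes called, 15.9% higher and 17.8% lower. The interaction was called for 2 members, Ptgs2 (a smaller response in DKO cells, called in all 22 alternative fits) and Il1b (a larger one, with the call lost in 12 of 22). Of all genes 9.45% were called for this interaction, 3.07% with a positive and 6.39% with a negative value. The median log2 difference of the 9 members was 3.26 for etoposide in Null cells, 2.52 for etoposide in DKO cells, -0.33 for genotype in control cells, 0.81 for genotype after etoposide and 0.19 for the interaction, while that of all tested genes lay between -0.01 and 0.03. Without Il1a, Lif and Csf1 the medians over the other 6 were 1.78, 2.05, 0.23, 0.77 and 0.01, so that the control genotype median changed sign.

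Library ranges were compared as well. For 9 of 10 members all Null etoposide libraries exceeded all Null control libraries, whereas over all tested genes 53% of such groups were apart, 28.1% higher and 24.9% lower. The same 9 were apart in DKO cells, where the shares over all genes were 46.4%, 24.2% and 22.2%. These 9 include Il6, which was too low to judge and is not among the tested genes behind the shares. They also include Il1a, Lif and Csf1, which reached the count filter through their etoposide libraries. The number of members apart by etoposide thus carries little weight by itself. Between genotypes 3 members were apart upwards and 3 downwards in control cells (27.6% of all genes, 14.3% higher and 13.3% lower), and 6 upwards and 2 downwards after etoposide (55.6%, 27.5% higher and 28.1% lower).

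**Figure D1:**
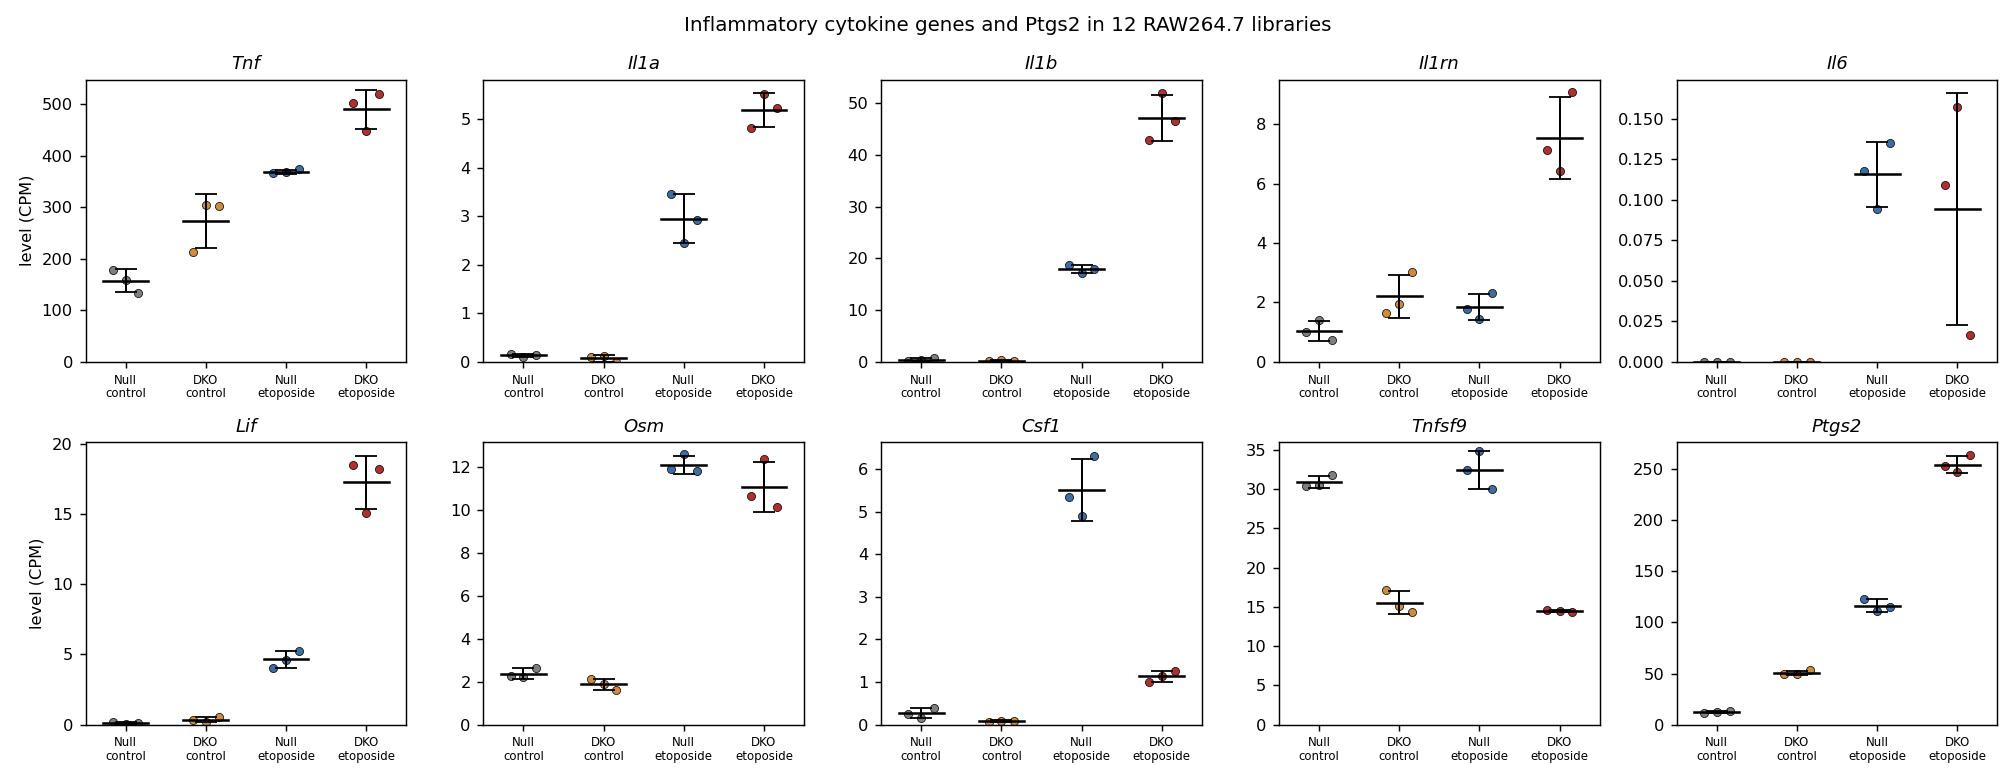
Levels of the 10 genes in CPM (linear axes from 0) in each library, grouped by genotype and treatment; points are libraries, the wide bar is the mean and the whiskers are 1 SD of 3 libraries. Ptgs2 and Tnf were present in every group, Il1a, Il1b, Lif and Csf1 were close to 0 in both control groups, Tnfsf9 followed genotype, and Il6 did not exceed 0.157 CPM.

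The 4 start site windows below belong to Ptgs2 and Il1b, the members with a called interaction (that of Il1b was lost in 12 of 22 alternative fits), and to Lif and Csf1, which differed between genotypes in opposite directions after etoposide. Each runs from 250 bases before to 50 bases after an annotated start (RefSeq, GRCm38.p6), is written 5′ to 3′ on the strand of the gene, and has matches to searched motifs in capitals. The capitals in Ptgs2 are an E-box, the hexamer bound by basic helix-loop-helix factors including TFEB and TFE3, overlapped by a CRE core. Those in Il1b are a TATA box, those in Lif an AP-1 site and then an NF-kB site, and those in Csf1 an NF-kB site.
Ptgs2, chr1:150099781-150100080, plus strand: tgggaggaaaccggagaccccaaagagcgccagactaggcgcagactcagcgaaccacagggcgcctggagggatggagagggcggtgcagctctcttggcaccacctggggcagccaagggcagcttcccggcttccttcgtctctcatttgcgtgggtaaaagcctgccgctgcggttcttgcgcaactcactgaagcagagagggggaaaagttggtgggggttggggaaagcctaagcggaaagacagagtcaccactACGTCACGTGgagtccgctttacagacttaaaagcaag
Il1b, chr2:129371090-129371389, minus strand: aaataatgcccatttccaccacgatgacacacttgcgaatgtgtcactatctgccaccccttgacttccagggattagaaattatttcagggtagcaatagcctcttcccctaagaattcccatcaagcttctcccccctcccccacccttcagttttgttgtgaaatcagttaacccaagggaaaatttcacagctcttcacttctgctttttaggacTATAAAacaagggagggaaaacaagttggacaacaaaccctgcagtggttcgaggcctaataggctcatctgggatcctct
Lif, chr11:4257318-4257617, plus strand: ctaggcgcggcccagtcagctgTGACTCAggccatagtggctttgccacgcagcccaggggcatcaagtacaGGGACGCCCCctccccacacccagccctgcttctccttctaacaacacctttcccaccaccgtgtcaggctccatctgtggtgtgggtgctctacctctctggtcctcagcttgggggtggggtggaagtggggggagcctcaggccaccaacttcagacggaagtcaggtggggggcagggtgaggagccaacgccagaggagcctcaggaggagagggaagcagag
Csf1, chr3:107760420-107760719, minus strand: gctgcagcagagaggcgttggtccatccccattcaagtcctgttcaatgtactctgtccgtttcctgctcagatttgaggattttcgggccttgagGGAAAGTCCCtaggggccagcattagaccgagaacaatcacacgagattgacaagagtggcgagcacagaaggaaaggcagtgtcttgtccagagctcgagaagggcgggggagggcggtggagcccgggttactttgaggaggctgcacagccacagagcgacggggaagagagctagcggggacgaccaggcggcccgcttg

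Motifs were searched on both strands in 32851 RefSeq windows of the same length. The E-box, searched as CACGTG, occurred in 7.15% of them and the AP-1 site, searched as TGANTCA, in 7.81%. The CRE core, searched as TGACGT, occurred in 7.51%, the TATA box, searched as TATAAA, in 13.6% and the NF-kB consensus in 8.46%. Windows were found for 8 of the 10 members, all but Osm and Tnfsf9, with 3 windows for Il1rn. An E-box was present in 1 of the 8, Ptgs2, where it began 16 bases after the start and shared bases with the CRE core that began 12 bases after it. An AP-1 match was present in 4 members (Il1rn, Il1a, Il6 and Lif) and a CRE core in 2 (Ptgs2 and Il6). A TATA box match was present in 4 (Il1rn, Il1a, Il1b and Tnf) and an NF-kB match in 3 (Csf1, Il6 and Lif). The TATA box letters began at -32, -31 and -29 from the start in Il1a, Il1b and Tnf. In Il1rn they lay on the opposite strand and after the start, at 14, unlike the position of a TATA box. A match describes letters in a window and not a bound site.

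Tnf, which encodes tumour necrosis factor, the founding ligand of its superfamily, was the most abundant member in every group. The gene (ENSMUSG00000024401.14) lies at chr17:35199381-35202007 on the minus strand of GRCm38. Control libraries held 178, 159.7 and 134 CPM in Null cells and 213, 305 and 303 CPM in DKO cells. Etoposide libraries held 366, 368 and 374 CPM in Null cells and 503, 448 and 519.9 CPM in DKO cells. The 4 groups did not overlap and rose in that order. Etoposide raised Tnf 2.37-fold in Null cells (log2 difference 1.24 ± 0.14 SE, limma-trend, Benjamini-Hochberg adjusted p = 1.73e-05) and 1.81-fold in DKO cells (0.86 ± 0.14, adjusted p = 3.43e-04). DKO cells held 1.73-fold more than Null cells in control (0.79 ± 0.14, adjusted p = 0.00115). After etoposide the log2 difference between genotypes was 0.41 ± 0.14 (adjusted p = 0.0395 by limma-trend), and this call was lost when libraries were scaled by size alone (adjusted p = 0.0525), when genes needed 1 CPM in 3 libraries (0.0588) and when Null control 2, any Null etoposide library or DKO etoposide 1 or 3 was left out (up to 0.118). The smaller etoposide response of DKO cells was not called (interaction -0.39, 95% interval -0.81 to 0.04, adjusted p = 0.297 by limma-trend), except without DKO control 1, the lowest of its group (-0.54, adjusted p = 0.0294).

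Tnfsf9 encodes the ligand of the T cell receptor 4-1BB and was the member that etoposide left without a call. The gene (ENSMUSG00000035678.7) lies at chr17:57105325-57107757 on the plus strand. Null control libraries held 30.4, 30.5 and 31.8 CPM and Null etoposide libraries 32.5, 34.9 and 30.04 CPM. DKO control libraries held 17.2, 15.04 and 14.4 CPM and DKO etoposide libraries 14.6, 14.4 and 14.4 CPM. The treatments overlapped in both genotypes, and every DKO library lay below every Null library. DKO cells held 0.502 of the Null level in control (log2 difference -0.99 ± 0.08, limma-trend, Benjamini-Hochberg adjusted p = 2.88e-06) and 0.448 of it after etoposide (-1.16 ± 0.08, adjusted p = 4.33e-07). The etoposide difference had a 95% interval of -0.12 to 0.25 on the log2 scale in Null cells and -0.28 to 0.09 in DKO cells, and the interaction was -0.17 (95% interval -0.43 to 0.10, adjusted p = 0.516 by limma-trend). An antisense transcript, Gm11110, shares exon bases with Tnfsf9, and could account for at most 1.87% of its counts.

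Il1b encodes interleukin-1 beta, the secreted pyrogen that is released after cleavage by caspase-1, and rose from near 0 with etoposide in both genotypes. The gene (ENSMUSG00000027398.13) lies at chr2:129364570-129371139 on the minus strand, 54.6 kb from Il1a. Null control libraries held 0.130, 0.323 and 0.762 CPM (4 to 37 counts) and DKO control libraries 0.169, 0.287 and 0.183 CPM (6 to 16 counts). After etoposide Null libraries held 18.7, 17.1 and 17.9 CPM and DKO libraries 42.9, 51.9 and 46.5 CPM. The control groups overlapped, whereas each DKO etoposide library exceeded each Null etoposide library. Summed counts rose 40.6-fold in Null cells (95% interval 31.2 to 53.7, exact conditional binomial, counting error only) and 216-fold in DKO cells (152 to 318). The fitted log2 differences were 5.52 ± 0.39 in Null cells (limma-trend, Benjamini-Hochberg adjusted p = 3.31e-07) and 7.46 ± 0.39 in DKO cells (adjusted p = 1.38e-08). After etoposide DKO cells held 2.62-fold more (1.39 ± 0.39, adjusted p = 0.0150 by limma-trend), and in control cells the log2 difference was -0.54 (95% interval -1.39 to 0.30). The larger response of DKO cells was called narrowly (interaction 1.93 ± 0.55, adjusted p = 0.0451 by limma-trend). It lost the call without Null control 2, DKO control 1 or 3, or any etoposide library (adjusted p 0.0780 to 0.106), without the count filter (0.0594) and with a prior count of 0.5 (0.0806), while the value stayed between 1.396 and 2.46 in 22 alternative fits.

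Il1a encodes interleukin-1 alpha, an alarmin that acts without cleavage by caspase-1 and through the same receptor. The gene (ENSMUSG00000027399.1) lies at chr2:129299610-129309972 on the minus strand. Its counts in the control libraries were 5, 5 and 7 in Null cells and 5, 7 and 0 in DKO cells, too low to judge a genotype difference. After etoposide Null libraries held 3.46, 2.46 and 2.93 CPM and DKO libraries 4.83, 5.53 and 5.23 CPM. All etoposide libraries exceeded all control libraries, and DKO etoposide exceeded Null etoposide libraries without overlap. Summed counts rose 22.6-fold in Null cells (95% interval 13.9 to 39.0, counting error only) and 61.4-fold in DKO cells (35.0 to 119), and both fitted differences were called (3.95 and 5.46 on the log2 scale, adjusted p = 2.62e-06 and 1.13e-07 by limma-trend). The genotype difference after etoposide was not called in the fit over all groups (log2 difference 0.81, 95% interval 0.05 to 1.58, adjusted p = 0.0974 by limma-trend). It was called by edgeR (adjusted p = 0.0127), by DESeq2 (6.05e-05), in a fit of the etoposide groups alone (5.04e-04) and without DKO control 3, the library with 0 counts (0.00802). The other 19 of 23 alternative fits did not call it, with an adjusted p of up to 0.439 (prior count of 0.5). Its interaction of 1.52 (95% interval 0.43 to 2.60, adjusted p = 0.0866 by limma-trend) was called, among the alternatives run, without DKO control 1 (1.71, adjusted p = 0.0468) or DKO control 2 (1.85, 0.0343), and was 1.02 (0.0634) without DKO control 3. The antisense transcript Gm14023 could account for at most 3.42% of its counts.

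Il1rn encodes the interleukin-1 receptor antagonist, which occupies the receptor without signalling. The gene (ENSMUSG00000026981.15) lies at chr2:24336853-24351494 on the plus strand, apart from the Il1a and Il1b pair. Control libraries held 1.00, 1.41 and 0.742 CPM in Null cells and 1.65, 1.96 and 3.02 CPM in DKO cells. Etoposide libraries held 1.78, 1.46 and 2.32 CPM in Null cells and 7.12, 6.42 and 9.07 CPM in DKO cells. DKO etoposide stood apart from the other 3 groups, and DKO control and Null etoposide libraries overlapped. Etoposide raised Il1rn 3.42-fold in DKO cells (log2 difference 1.77 ± 0.27, limma-trend, Benjamini-Hochberg adjusted p = 2.22e-04), and after etoposide DKO cells held 4.001-fold more than Null cells (2.00 ± 0.27, adjusted p = 1.00e-04). The smaller rise in Null cells (0.80 ± 0.27, adjusted p = 0.0334 by limma-trend) lost its call without Null control 1 or 3, Null etoposide 1 or 3 or DKO etoposide 1 (adjusted p 0.0520 to 0.134). The genotype difference in control cells (1.03 ± 0.27, adjusted p = 0.0178 by limma-trend) lost it without Null control 3 (0.0712) or DKO control 3 (0.0760) and in a fit of the control groups alone (0.0867). The interaction was 0.97 (95% interval 0.14 to 1.81, adjusted p = 0.161 by limma-trend) and was not called.

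Lif encodes leukaemia inhibitory factor, an interleukin-6 family ligand of LIFR and gp130. The gene (ENSMUSG00000034394.14) lies at chr11:4257557-4272514 on the plus strand, 16.5 kb from Osm. Control libraries held 5, 1 and 4 counts in Null cells (0.162, 0.0202 and 0.0824 CPM) and 18, 9 and 17 counts in DKO cells (0.338, 0.162 and 0.518 CPM). After etoposide Null libraries held 4.04, 4.64 and 5.25 CPM and DKO libraries 18.5, 15.1 and 18.2 CPM. The etoposide groups stood apart from each other and from both controls, whereas the control groups met at 0.162 CPM. Summed counts rose 59.5-fold in Null cells (95% interval 32.2 to 125, counting error only) and 55.6-fold in DKO cells (41.3 to 76.7), with fitted log2 differences of 5.11 and 5.54 (limma-trend, Benjamini-Hochberg adjusted p = 4.82e-07 and 1.67e-07). DKO cells held 3.69-fold more after etoposide (log2 difference 1.88 ± 0.37, adjusted p = 0.00180 by limma-trend). The control difference (1.45 ± 0.37, adjusted p = 0.0154 by limma-trend) rests on few counts and lost its call without Null control 2 (0.0676) or DKO control 3 (0.0657). The interaction of 0.43 (95% interval -0.71 to 1.58) was not called, and its sign was negative in 3 alternative fits.

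Osm encodes oncostatin M, the neighbouring interleukin-6 family ligand, at chr11:4236420-4241026 on the plus strand (ENSMUSG00000058755.3). Null libraries held 2.27, 2.20 and 2.66 CPM in control and 11.9, 12.6 and 11.8 CPM after etoposide. DKO libraries held 2.14, 1.90 and 1.62 CPM in control and 10.7, 12.4 and 10.1 CPM after etoposide. Etoposide and control libraries were apart in both genotypes, and the etoposide groups of the genotypes overlapped. Etoposide raised Osm 5.02-fold in Null cells (log2 difference 2.33 ± 0.13, limma-trend, Benjamini-Hochberg adjusted p = 5.70e-08) and 5.74-fold in DKO cells (2.52 ± 0.13, adjusted p = 1.39e-08). The genotype difference after etoposide was -0.13 on the log2 scale (95% interval -0.42 to 0.15, adjusted p = 0.477 by limma-trend) and the interaction 0.19 (-0.21 to 0.60, adjusted p = 0.656). Although the 3 DKO control libraries lay below the 3 Null control libraries, a separation in which 27.6% of all genes shared in either direction, that difference was not called (-0.33, adjusted p = 0.111 by limma-trend), except without DKO control 1 (-0.44, adjusted p = 0.0336). Osm and Lif thus gave unlike values for genotype after etoposide, with 95% intervals of -0.42 to 0.15 and 1.07 to 2.70.

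Il6, the gene of interleukin-6 itself (ENSMUSG00000025746.11, chr5:30013114-30019981, plus strand), was too low to judge. All 6 control libraries held 0 counts. Null etoposide libraries held 7, 5 and 7 counts and DKO etoposide libraries 6, 9 and 1 counts, at most 0.157 CPM. Set against a floor of 3 counts over a control group, the summed etoposide counts as observed were at least 4.98-fold higher in Null cells and at least 4.37-fold higher in DKO cells. With the counting error of the etoposide counts included, the lower limits of the exact interval were 3.67 and 3.16. Fitted without the count filter, Il6 was called higher after etoposide in Null (log2 difference 1.56, adjusted p = 0.00378 by limma-trend) and DKO cells (1.24, adjusted p = 0.0164), values that depend on the prior count. The ratio of DKO to Null after etoposide was 0.799 with a counting interval of 0.384 to 1.64, so that no genotype difference was detectable at this depth.

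Csf1 encodes macrophage colony-stimulating factor and was the etoposide-responsive member with lower levels in DKO cells. The gene (ENSMUSG00000014599.10) lies at chr3:107741048-107760469 on the minus strand. Control libraries held 8, 8 and 19 counts in Null cells (0.259, 0.161 and 0.392 CPM) and 3, 5 and 3 counts in DKO cells (0.0563, 0.0897 and 0.0915 CPM). After etoposide Null libraries held 5.35, 4.89 and 6.31 CPM and DKO libraries 0.999, 1.14 and 1.27 CPM. Every DKO library was below every Null library of the same treatment, and no treatments overlapped. Summed counts rose 20.3-fold in Null cells (95% interval 14.5 to 29.3, counting error only) and 14.7-fold in DKO cells (8.02 to 29.9), with fitted log2 differences of 4.13 and 3.11 (limma-trend, Benjamini-Hochberg adjusted p = 1.28e-07 and 1.13e-06). DKO cells held 0.214 of the Null level after etoposide (log2 difference -2.22 ± 0.26, adjusted p = 2.68e-05 by limma-trend), a call kept in all 23 alternative fits. In control cells the difference was -1.20 ± 0.26 (adjusted p = 0.00496 by limma-trend), from at most 19 counts a library. The interaction of -1.02 (95% interval -1.81 to -0.22, adjusted p = 0.118 by limma-trend) was called, among the alternatives run, without Null control 3, the highest of its group (-1.27, adjusted p = 0.0350), and was smaller in the count-based fits (-0.51, adjusted p = 0.710 by edgeR, and -0.46, 0.759 by DESeq2).

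Ptgs2 combined a genotype difference with an etoposide difference and was measured with the smallest error among the members. The gene (ENSMUSG00000032487.8) lies at chr1:150100031-150108227 on the plus strand, and its start site window is the one with the E-box. Control libraries held 11.1, 12.1 and 13.3 CPM in Null cells and 49.2, 49.0 and 53.1 CPM in DKO cells. Etoposide libraries held 123, 111 and 115 CPM in Null cells and 253, 247 and 264 CPM in DKO cells. The 4 groups were apart, with DKO control between Null control and Null etoposide. Etoposide raised Ptgs2 9.56-fold in Null cells (log2 difference 3.26 ± 0.08, limma-trend, Benjamini-Hochberg adjusted p = 5.61e-11) and 5.05-fold in DKO cells (2.33 ± 0.08, adjusted p = 2.41e-10). DKO cells held 4.14-fold more in control (2.05 ± 0.08, adjusted p = 2.34e-09 by limma-trend) and 2.18-fold more after etoposide (1.13 ± 0.08, adjusted p = 2.61e-07). The fold response was thus smaller in DKO cells, by 0.92 on the log2 scale (interaction -0.92 ± 0.11, adjusted p = 1.51e-04 by limma-trend), from a higher starting level and to a higher end level. The interaction lay between -0.99 and -0.86 in 22 alternative fits and was called in each.

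**Figure D2:**
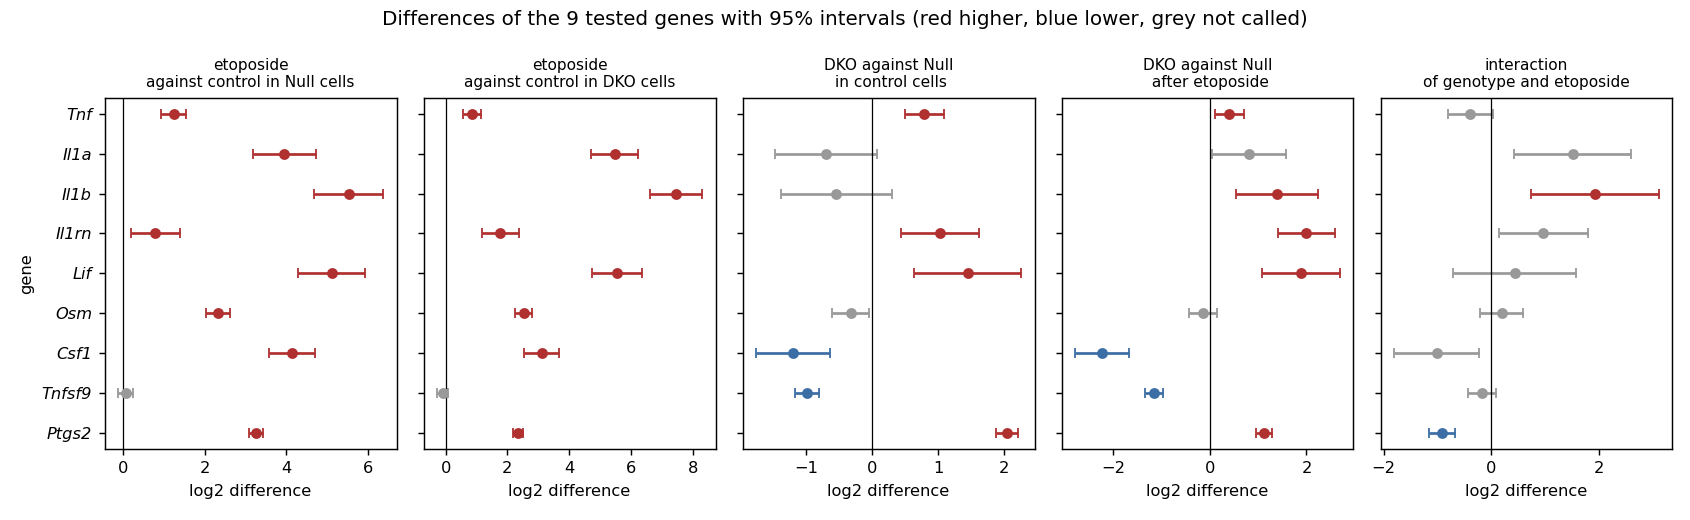
Log2 differences (x axes, a separate scale per panel) of the 9 tested genes (y axis) with 95% intervals in 5 comparisons from limma-trend; red marks higher, blue lower and grey not called at an adjusted p under 0.05. Etoposide differences were called to the right of 0 for all but Tnfsf9, which lay near 0 and was not called in either genotype (0.07 in Null and -0.096 in DKO cells), genotype differences lay on both sides, and Il1b (1.93) and Ptgs2 (-0.92) were the called interactions.

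Levels of different genes were compared per kb of exon, with all annotated exons of a gene merged. In Null control cells Tnf stood at 95.9 ± 13.6 CPM per kb, Tnfsf9 at 23.9 ± 0.594, Ptgs2 at 2.66 ± 0.243 and Osm at 1.05 ± 0.109 CPM per kb (SD, n = 3). The other 6 were below 0.22 CPM per kb there, and Il1b (0.212 ± 0.170) and Il1rn (0.190 ± 0.061) did not differ beyond their spread. In DKO etoposide cells the order was Tnf at 299 ± 23.0, Ptgs2 at 55.6 ± 1.83, Il1b at 24.7 ± 2.37, Tnfsf9 at 11.2 ± 0.0933, Osm at 4.87 ± 0.518, Lif at 3.97 ± 0.437, Il1a at 2.63 ± 0.176, Il1rn at 1.36 ± 0.249 and Csf1 at 0.215 ± 0.0252 CPM per kb. The SD ranges of Osm and Lif overlapped there, so these did not differ beyond their spread. In Null etoposide cells Tnfsf9 (25.2 ± 1.88) and Ptgs2 (25.4 ± 1.34 CPM per kb) did not differ beyond their spread, and Il1b was lower at 9.39 ± 0.409 CPM per kb. In DKO control cells Tnfsf9 stood at 12.04 ± 1.12 and Ptgs2 at 11.01 ± 0.503 CPM per kb, with Il1b at 0.112 ± 0.0339.

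In the following lists of related genes, the counts stand against the shares of all genes called given above (39.6% and 39.3% for etoposide in Null and DKO cells, 19.3% and 33.7% for genotype in control and after etoposide, and 9.45% for the interaction), and nothing particular to a list was tested.

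Prostanoid genes around Ptgs2 differed by genotype and by etoposide. Of 17 genes listed for prostanoid synthesis, breakdown, transport and reception, 13 could be tested. DKO cells were higher for 3 and lower for 4 in control, and higher for 4 and lower for 4 after etoposide. Both counts of lower genes include the receptor gene Ptger2, which reached the count filter through Null libraries alone. Hpgd, the dehydrogenase that inactivates prostaglandins, held 184 ± 9.14 CPM in Null control and 25.1 ± 2.31 CPM in Null etoposide libraries. In DKO cells it held 12 to 14 counts per control library and 1 to 6 per etoposide library, at means of 0.292 and 0.0586 CPM. Hpgds, a prostaglandin D synthase of blood cells, stood at 63.1 ± 7.07 CPM (Null) and 3.73 ± 0.415 CPM (DKO) in control cells (log2 difference -4.06, adjusted p = 2.70e-10 by limma-trend) and at 32.9 ± 0.292 CPM (Null) and 1.69 ± 0.189 CPM (DKO) after etoposide (-4.24, adjusted p = 7.76e-11). Ptgs1, the constitutive cyclooxygenase, differed between genotypes in the opposite direction to Ptgs2. Without etoposide it held 7.20 ± 0.295 CPM (Null) and 2.10 ± 0.382 CPM (DKO), and with it 5.38 ± 0.421 CPM (Null) and 0.704 ± 0.156 CPM (DKO). Its log2 difference between genotypes was -1.76 in control (adjusted p = 1.13e-05 by limma-trend) and -2.85 after etoposide (adjusted p = 8.50e-08), and its fall after etoposide was called in DKO cells (-1.51, adjusted p = 2.27e-05) and not in Null cells (-0.42, adjusted p = 0.0778), with an interaction of -1.09 (adjusted p = 0.0146).

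Etoposide raised 2 of the 13 prostanoid genes and lowered 5 in Null cells, and raised 3 and lowered 7 in DKO cells. Ptges, the inducible prostaglandin E synthase, rose in Null cells from 0.576 ± 0.0642 to 2.05 ± 0.392 CPM (log2 difference 1.72, adjusted p = 1.34e-04 by limma-trend) and in the DKO line from 1.4997 ± 0.612 to 5.65 ± 0.125 CPM (1.95, adjusted p = 4.53e-05). Ptger2, a receptor for prostaglandin E, rose in Null cells from 0.300 ± 0.119 to 0.943 ± 0.249 CPM (1.51, adjusted p = 0.00569 by limma-trend) and held at most 10 counts in any DKO library. It reached the count filter through Null libraries alone, and the counts of raised genes in both genotypes include it. Ptgis, Ptgds, Ptger3 and Slco2a1 were too low to test, with at most 18 counts in a library. In DKO cells Ptgs2 and Ptges were thus above, and Ptgs1, Hpgds and Hpgd below, their Null levels after etoposide.

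**Figure D3:**
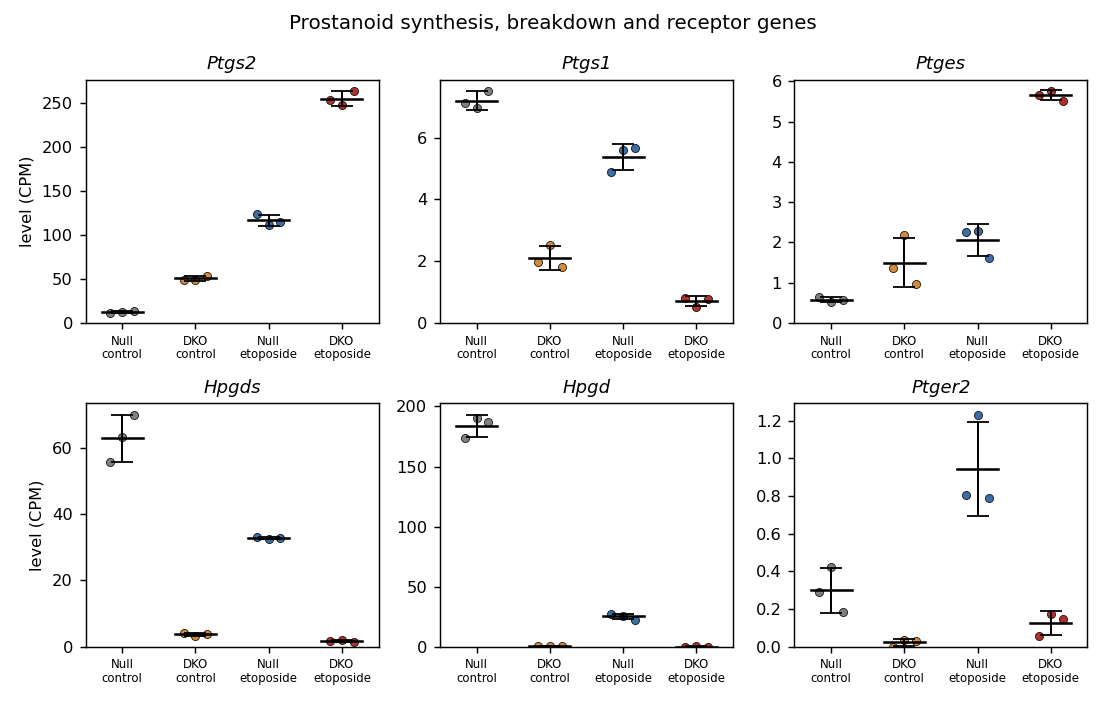
Levels (CPM, linear axes from 0) of Ptgs2 and 5 other prostanoid genes in each library by group; points are libraries, wide bars means and whiskers 1 SD of 3 libraries. Ptgs2 and Ptges were highest in DKO etoposide cells (means 254.6 and 5.65 CPM), whereas Ptgs1, Hpgds, Hpgd and Ptger2 stood below their Null levels in the DKO line.

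Among 11 receptor genes for the members, 8 could be tested. Etoposide raised 2 and lowered 2 in Null cells and raised 4 and lowered 1 in DKO cells. The DKO count includes Lifr, which reached the count filter through Null libraries alone and held 0 counts in DKO control and 5 or 6 in DKO etoposide libraries, so that 3 rises remain without it. Csf1r, the receptor of colony-stimulating factor 1, fell from 1751 ± 116 to 764 ± 30.3 CPM in Null cells (log2 difference -1.19, adjusted p = 4.33e-07 by limma-trend), while in DKO cells it stood at 1292 ± 127 CPM in control and 849 ± 32.1 CPM after etoposide. Its response differed between genotypes (interaction 0.59, adjusted p = 0.00799 by limma-trend). Tnfrsf9, the receptor of the Tnfsf9 product, rose with etoposide, in Null cells from 0.154 ± 0.0996 to 1.51 ± 0.181 CPM (3.02, adjusted p = 1.16e-04 by limma-trend) and in the DKO line from 0.196 ± 0.129 to 2.28 ± 0.566 CPM (3.28, adjusted p = 5.47e-05), whereas its ligand did not pass the test in either. Tnfrsf1b, a receptor of tumour necrosis factor, was lower in DKO cells, at 8.92 ± 1.41 against 28.9 ± 2.34 CPM in control (-1.70, adjusted p = 1.43e-07 by limma-trend) and 17.3 ± 0.121 against 47.5 ± 0.506 CPM after etoposide (-1.45, adjusted p = 3.45e-07).

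The receptor chains for Lif, Osm and interleukin-1 differed in how well they were detected. Il6st, which encodes gp130, stood after etoposide at 61.6 ± 2.54 CPM (Null) and 117 ± 11.6 CPM (DKO, log2 difference 0.92, adjusted p = 3.63e-05 by limma-trend). Lifr, the partner chain for Lif, held 19 to 34 counts per Null control library, 0 in every DKO control library, 6 to 17 in Null etoposide and 5 or 6 in DKO etoposide libraries. Osmr held 0 counts in all control libraries and at most 11 after etoposide, and the interleukin-1 receptors Il1r1 and Il1r2 held at most 7 and 6 counts in a library, so these could not be tested.

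Genes for processing and release of the cytokines were present in every group, and all 8 could be tested. Etoposide raised 4 and lowered 2 in Null cells and raised 5 and lowered 1 in DKO cells, while genotype changed 4 in control and 4 after etoposide, each higher in DKO cells. Adam17, the Tnf-shedding protease, fell with etoposide in Null (log2 difference -0.26, adjusted p = 0.00698 by limma-trend) and DKO cells (-0.36, adjusted p = 6.94e-04). Rhbdf2, whose product carries the Tnf-shedding protease to the cell surface, stood at 46.5 ± 6.73, 79.5 ± 6.19, 135 ± 2.68 and 213 ± 11.2 CPM in Null control, DKO control, Null etoposide and DKO etoposide libraries. It rose with etoposide in Null (log2 difference 1.54, adjusted p = 1.45e-07 by limma-trend) and DKO cells (1.42, adjusted p = 2.02e-07). Casp1, the caspase that cleaves pro-interleukin-1 beta, stood after etoposide at 42.1 ± 1.76 CPM (Null) and 82.0 ± 3.74 CPM (DKO, log2 difference 0.96, adjusted p = 5.86e-07 by limma-trend), after a fall with etoposide in Null cells (-0.28, adjusted p = 0.00849). The calpain genes Capn1 and Capn2 encode proteases that cleave pro-interleukin-1 alpha. Capn1 rose with etoposide in Null cells (1.35, adjusted p = 6.74e-05 by limma-trend) and DKO cells (0.80, adjusted p = 0.00313), and Capn2 was higher in DKO cells in control (1.24, adjusted p = 1.43e-08) and after etoposide (1.20, adjusted p = 1.08e-08). An antisense transcript could account for at most 15.6% of the Capn2 counts. Casp8, another caspase that can cleave pro-interleukin-1 beta, rose with etoposide in Null cells (0.40, adjusted p = 0.00331 by limma-trend) and DKO cells (0.49, adjusted p = 8.90e-04), and Rhbdf1, the relative of Rhbdf2, was called higher with etoposide in DKO cells (0.52, adjusted p = 0.0246) and not in Null cells (0.40, adjusted p = 0.0713), with no called interaction (0.12, adjusted p = 0.863).

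Many cytokine transcripts carry AU-rich elements or stem-loops that are read by decay factors, and 11 genes for such factors were tested. Etoposide raised 4 and lowered 3 in Null cells and raised 4 and lowered 2 in DKO cells, while genotype changed 1 in control and 3 after etoposide. Zc3h12a, the stem-loop endonuclease Regnase-1, rose with etoposide, in Null cells from 9.98 ± 1.43 to 22.0 ± 0.911 CPM (log2 difference 1.14, adjusted p = 1.00e-05 by limma-trend) and in the DKO line from 9.88 ± 1.35 to 25.2 ± 1.43 CPM (1.35, adjusted p = 2.01e-06). Zfp36, the AU-rich element binding protein tristetraprolin, rose in Null cells from 39.9 ± 6.63 to 83.0 ± 1.03 CPM (1.07, adjusted p = 7.73e-05 by limma-trend) and by 0.40 on the log2 scale in DKO cells (adjusted p = 0.0419), where it was already higher in control (0.62, adjusted p = 0.00835), and its interaction was not called (-0.67, adjusted p = 0.0611). Hnrnpd, which encodes the decay factor AUF1, fell with etoposide by 1.14 on the log2 scale in Null cells (adjusted p = 5.85e-06 by limma-trend) and by 0.82 in DKO cells (adjusted p = 8.17e-05). The relatives of Zfp36 differed by genotype after etoposide. Zfp36l1 was lower in DKO cells (-1.08, adjusted p = 0.0171 by limma-trend), with up to 49.9% of its counts possibly from an antisense transcript. Zfp36l2 was higher in them (0.49, adjusted p = 0.0251 by limma-trend) and rose with etoposide in DKO cells (0.72, adjusted p = 0.00219). Rc3h1, the stem-loop binding protein Roquin-1, had the only called interaction (-0.44, adjusted p = 0.0125 by limma-trend).

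All 20 genes of signalling below these receptors could be tested. Etoposide raised 7 and lowered 2 in Null cells and raised 11 and lowered 4 in DKO cells, and DKO cells were higher for 9 and lower for 5 after etoposide. Socs3, which dampens gp130 signalling, went from 19.2 ± 0.908 CPM without to 52.8 ± 0.807 CPM with etoposide in Null cells. In the DKO line it went from 15.1 ± 1.89 to 167 ± 18.2 CPM. Its response was larger in DKO cells (interaction 2.01 ± 0.14, adjusted p = 1.22e-06 by limma-trend). Tnfaip3, the ubiquitin-editing inhibitor A20 of NF-kB, went from 11.7 ± 0.255 to 15.8 ± 0.415 CPM (Null) and from 6.501 ± 0.737 to 3.75 ± 0.309 CPM (DKO) and had an interaction in the opposite direction (-1.21 ± 0.15, adjusted p = 1.59e-04 by limma-trend). Socs1, an inhibitor of Janus kinases, rose in Null cells from 0.206 ± 0.136 to 2.16 ± 0.247 CPM (log2 difference 3.22, adjusted p = 6.23e-05 by limma-trend) and in DKO cells from 0.150 ± 0.0568 to 0.437 ± 0.191 CPM (1.20, adjusted p = 0.0377). After etoposide it was lower in DKO cells (-2.23, adjusted p = 0.00122 by limma-trend), and its interaction was not called (-2.02, adjusted p = 0.0534). Traf1, an adaptor of tumour necrosis factor receptors, rose with etoposide from 33.2 ± 2.20 to 89.1 ± 4.20 CPM (Null) and from 36.3 ± 2.84 to 63.4 ± 2.35 CPM (DKO, interaction -0.62, adjusted p = 0.00316 by limma-trend). In control cells Irak3, an inhibitory kinase of the interleukin-1 pathway, was lower in the DKO line (-0.96, adjusted p = 0.00658 by limma-trend), and Myd88, the adaptor of interleukin-1 receptors, was higher (0.86, adjusted p = 1.50e-05).

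**Figure D4:**
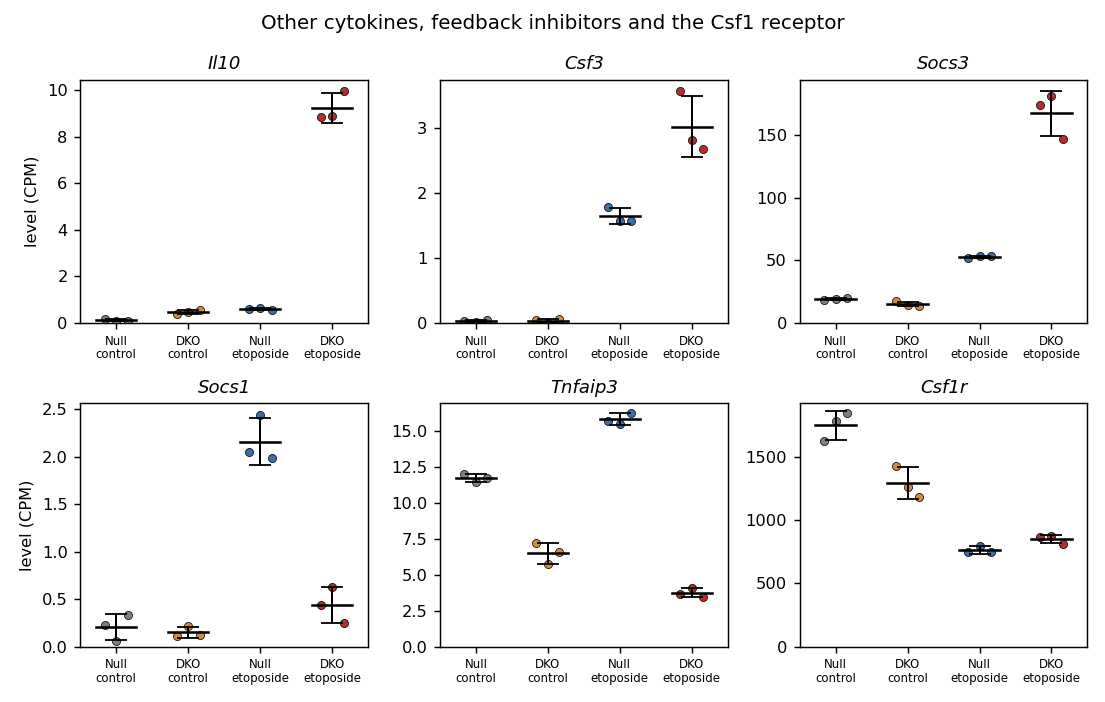
Levels (CPM, linear axes from 0) of 2 other cytokines, 3 feedback inhibitors and the Csf1 receptor in each library by group; points are libraries, wide bars means and whiskers 1 SD of 3 libraries. Il10 and Socs3 were highest in DKO etoposide cells (means 9.22 and 167 CPM), Socs1 and Tnfaip3 in Null etoposide cells (2.16 and 15.8 CPM) and Csf1r in Null control cells (1751 CPM).

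Of 21 further cytokine genes, 14 could be tested, and etoposide raised 9 and lowered 3 in Null cells and raised 10 and lowered 2 in DKO cells. These counts include Csf3, which reached the filter through etoposide libraries alone. Il10, the anti-inflammatory cytokine, went from 0.108 ± 0.0465 CPM without to 0.590 ± 0.0444 CPM with etoposide in Null cells, while the DKO line went from 0.470 ± 0.0773 to 9.22 ± 0.629 CPM, and its response was larger in DKO cells (interaction 2.15 ± 0.30, adjusted p = 5.45e-04 by limma-trend). Csf3, the granulocyte colony-stimulating factor, held at most 2 counts in any control library, and after etoposide 1.64 ± 0.124 CPM (Null) and 3.02 ± 0.475 CPM (DKO). Lta and Ltb, the lymphotoxin genes on either side of Tnf, went opposite ways by genotype. Lta stood after etoposide at 0.340 ± 0.157 CPM (Null) and 1.78 ± 0.199 CPM (DKO, log2 difference 2.27, adjusted p = 3.40e-05 by limma-trend), and Ltb in control at 37.2 ± 5.15 CPM (Null) and 10.3 ± 1.89 CPM (DKO, -1.86, adjusted p = 1.18e-06). Il16, a chemoattractant, fell with etoposide from 82.7 ± 3.9995 to 31.4 ± 1.48 CPM (Null) and from 34.9 ± 1.41 to 23.9 ± 0.658 CPM (DKO, interaction 0.85, adjusted p = 1.02e-04 by limma-trend), with up to 14.0% of its counts possibly from the overlapping gene Stard5. Il23a, a subunit of interleukin-23, rose in Null cells from 0.262 ± 0.0676 to 1.32 ± 0.177 CPM (2.12, adjusted p = 8.27e-06 by limma-trend), and Tnfsf14, the ligand LIGHT, rose in the DKO line from 0.220 ± 0.136 to 1.01 ± 0.200 CPM (2.02, adjusted p = 1.51e-04). Both were also called higher in the other genotype (Il23a 1.18, adjusted p = 8.96e-04, and Tnfsf14 1.19, adjusted p = 0.00648). The interleukin-12 and interferon beta genes Il12a, Il12b and Ifnb1 held at most 6 counts in a library and Csf2 at most 9, and were not tested.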

How the data were processed

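RNA-seq was done on 12 libraries of RAW264.7 cells. Total RNA was depleted of ribosomal RNA and made into strand-specific libraries, adapters were trimmed with Cutadapt where needed, and the authors aligned read pairs with HISAT2, keeping pairs that mapped uniquely. The methods name HTSeq for the counting and the submitters' processing notes name featureCounts, and the build in the notes is mm10. The annotation release and the strand setting are not given in the sources used here. The 2 RNA kits in the protocols are not tied to libraries. The table deposited by the authors holds raw gene counts of single libraries, which were used without change. Of 32688 identifiers, 99.4% were found in GENCODE M21 on GRCm38, which gave positions and exon lengths.

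Groups came from the labels. Genes were filtered with filterByExpr (edgeR 4.0.16), which kept 18066 genes holding 99.96% of counts. Normalization was by TMM (0.939 to 1.03), and log2 CPM with a prior count of 3 was fitted with limma-trend (limma 3.58.1, R 4.3.3) with robust empirical Bayes moderation, a model the study also used, over all 4 groups and 5 contrasts. P-values were two-sided and adjusted by Benjamini-Hochberg over all tested genes, with a threshold of 0.05. The interaction is the etoposide difference in DKO minus that in Null cells. Fold changes are on the scale of log2 CPM with that prior count, which understates them for genes near 0, and CPM levels are counts-per-million of the library total. Intervals on count ratios are exact conditional binomial at 95% and cover counting error only, as does the floor of 3 counts. Shares of overlapping genes assume reads spread evenly over exons. The steps were also run on simulated counts with the same dispersion for every gene and group. That run checks the code and not the calls made here, since the libraries of these groups were spread unequally. Alternatives were edgeR's quasi-likelihood test, DESeq2 1.42.0, other scalings, filters and prior counts, fits of the compared groups alone, a replicate block and leaving out each library, 23 alternative fits in all. A member was too low to judge when the filter dropped it or when no library held 10 counts. From each list of related genes, up to 3 called genes with the largest absolute difference were named for the interaction and the etoposide contrasts and up to 2 for the genotype contrasts, with Csf1r and Ptgs1 in any case, and untested genes were named by their counts. Adam17 was named outside this rule. The members and lists were chosen with earlier results of these data known. Libraries of a group differed by 3.40 to 53.6 times what counting alone gives, with the highest values for DKO control 1 against replicates 2 and 3, so none was a duplicate. Start site windows came from RefSeq (GRCm38.p6).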

Additional observations from a re-analysis of the deposited data

Results flagged for a closer look

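The etoposide response of Il1b was called different between genotypes by a test of the difference itself, but the call was lost in 12 of 22 alternative fits and kept in 10. The DKO response exceeded the Null response by 1.93 on the log2 scale (95% interval 0.74 to 3.13, limma-trend, Benjamini-Hochberg adjusted p = 0.0451), with all 3 DKO etoposide libraries above all 3 Null etoposide libraries and overlapping control groups of 4 to 37 counts a library. Under 22 alternative fits the adjusted p ran from 1.41e-07 to 0.106.

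The etoposide response of Ptgs2 also differed, in the other direction, with a log2 difference between the responses of -0.92 (95% interval -1.16 to -0.68, adjusted p = 1.51e-04 by limma-trend). Under 22 alternative fits the adjusted p ran from 1.89e-12 to 0.00116. The control level was 12.2 ± 1.11 CPM for Null and 50.4 ± 2.30 CPM for DKO cells (SD, n = 3).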

How the results depend on the processing

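Of the values for single members under the alternatives, 977 kept their direction and their side of the threshold, 32 lost a call, 11 gained one and 3 changed sign. Those 3 were the interaction of Lif, which was -0.088 with edgeR, -0.11 with DESeq2 and -0.12 with a prior count of 0.5. No member's etoposide call was lost except that of Il1rn in Null cells. With the control groups alone, 2031 genes and 3 members were called between genotypes, where the filter left out Il1a, Lif and Csf1. The interaction was called for 1 member with no filter on low counts, with a prior count of 0.5 and with the replicate block, Il1b being the call lost, and for 1 to 3 members when a library was left out. Leaving out single libraries gave 4 to 7 members called for genotype in control cells, 6 to 8 after etoposide and 7 to 8 for etoposide in Null cells. Il1b in control cells was called lower in DKO cells with DESeq2 (-1.003) and without Null control 1 (-1.07), and the difference was -0.005 without Null control 3. The causes were not tested.

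Libraries with the same replicate number did not deviate together (r from -0.54 to 0.39 over 18 pairs, 1 over 0.1, and 4 of 18 comparisons with the best match at the same number). No pairing by number was thus detected, although a weak one could be missed with 3 libraries in a group. With the number as a replicate block the adjusted p by limma-trend was 0.0515 for Il1rn in Null cells, 0.0776 for Tnf between genotypes after etoposide and 0.0607 for the Il1b interaction, and no other call of a member changed. Depth limited the control levels of Il1a, Il1b, Lif and Csf1 and all values of Il6.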

Other observations

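For each tested member, the protein-coding genes with the most similar profile were found by the root mean square (RMS) difference of log2 CPM, centred on each gene's mean, over the 12 libraries. Nothing follows from likeness about shared function or control. Tnf was closest to Rab11fip1 (RMS 0.0861) and Capn1 (0.113), and Tnfsf9 to Dnmt3a (0.0771) and L3mbtl2 (0.123). Dnmt3a, a DNA methyltransferase gene, had mean levels of 109 and 112 CPM in the Null groups (control, etoposide) and of 54.0 and 55.2 CPM in the DKO groups, following genotype as Tnfsf9 did.

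Ptgs2 was closest to Cbs (RMS 0.249), the gene of cystathionine beta-synthase, whose mean levels were 0.830 and 6.93 CPM in the Null groups and 2.57 and 13.3 CPM in the DKO groups, and to Epb41l1 (0.272). Il1rn was closest to Nr4a2 (0.357), a nuclear receptor gene, with 5.07 and 9.52 CPM (Null) and 9.57 and 30.5 CPM (DKO), and to Ceacam19 (0.361). Csf1 was closest to Trpm2 (0.415), a cation channel gene, with 0.889 and 15.49 CPM (Null) and 0.493 and 6.07 CPM (DKO), and to Sulf2 (0.518). Osm was closest to Fbxw9 (0.216), with 4.43 and 23.2 CPM (Null) and 4.37 and 26.5 CPM (DKO), and to Tns1 (0.232), which stood at 0 CPM in both control groups and at 0.234 and 0.207 CPM in the etoposide groups, so that its likeness depends on the prior count. The nearest profiles to Il1a (Ces2b, 0.522, and Ak1, 0.615), Il1b (Plb1, 0.616, and Ces2g, 0.687) and Lif (Crip2, 0.732, and Pak6, 0.777) were farther off. The other members were left out of this search, so likeness between members was not measured.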
